A study of Mus musculus with 6 samples.

Results

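The mouse S100 and annexin genes were followed in the prostates of hormone-treated and control mice. Members were all rows of the gene table whose symbol is S100a with a number, S100b, S100g or Anxa with a number. This gave 27 of 34745 genes, 15 of the S100 family and 12 annexins. RNA came from the prostates of 6 C57BL/6 mice that were 6 to 8 weeks old at the start. The 3 mice of the T + E2 group were given a pellet of testosterone and estradiol (10 to 1 by weight) under the skin, renewed monthly, and the prostate was taken after 12 weeks to model benign enlargement of the prostate with an obstructed bladder outlet. The 3 mice of the CON group had the skin incision without a pellet, so the hormones and the pellet itself cannot be told apart. No transgene or other allele is named for either group.

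S100 proteins are small calcium sensors with EF-hand motifs. When calcium binds, most of them open a surface that grips partner proteins, and some are also secreted and act on receptors of neighbouring or immune cells. Annexins bind acidic membrane lipids when calcium rises, and serve in membrane repair, vesicle traffic and the resolution of inflammation. Several members of the families bind each other, such as annexin A2 with S100A10 and annexin A1 with S100A11. In epithelia such as the prostate, annexins lie beneath the plasma membrane.

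The libraries held 14816146 to 16555549 reads counted on genes. Values are CPM, counts scaled to a common library size by TMM, unless FPKM (counts per length and depth) is named, a count of 3 was worth 0.182 to 0.207 CPM, and this floor covers counting error only. The prostate markers Pbsn and Hoxb13 were present in every mouse. The summed level of 8 luminal markers was 40040 to 53400 CPM in the CON group, against 17260 to 19250 CPM in the T + E2 group. The library of CON replicate 2 stood apart, with 9923 CPM over 7 seminal vesicle markers, where the other CON mice had 3.97 and 0.628 CPM and T + E2 replicate 2 had 600.4 CPM. It also had the highest adipocyte sum (374.3 CPM) and skeletal muscle sum (325.8 CPM). Whole tissue was sequenced, so fewer cells of a type and less RNA per cell cannot be told apart.

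Of the 27 members, 21 had enough counts for a test (10 S100 genes and 11 annexins). A gene passed the test at an adjusted p under 0.05 in the quasi-likelihood test of edgeR, adjusted by Benjamini-Hochberg over 15580 genes, and was a differentially expressed gene (DEG) where the absolute log2 fold change was also over 1. The annexins Anxa1, Anxa3, Anxa2 and Anxa5 and the S100 gene S100a1 passed, all with higher levels in the T + E2 group. That is 4 of 11 annexins and 1 of 10 S100 genes, against 19.6% of all tested genes in either direction, 10.4% in the upward and 9.25% in the downward direction. Anxa1 and Anxa3 were DEGs, where 7.64% of all tested genes were (4.27% higher and 3.38% lower). No member passed with a lower level in edgeR, DESeq2 or limma, and Anxa11 was the only member with a lower level at an unadjusted edgeR p under 0.05. The median log2 fold change was 0.26 over the tested annexins and 0.31 over the tested S100 genes, beside -0.0021 over all tested genes.

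Counted as ranges alone, the groups did not overlap for 10 of the 21 tested members, 8 with the T + E2 mice on top and 2 with the CON mice on top, beside 40.7% of all tested genes in either direction and 20.1% with the T + E2 mice on top. Anxa6, S100a11, S100a13, Anxa11 and S100b belong to these 10 without passing the test.

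**Figure D1:**
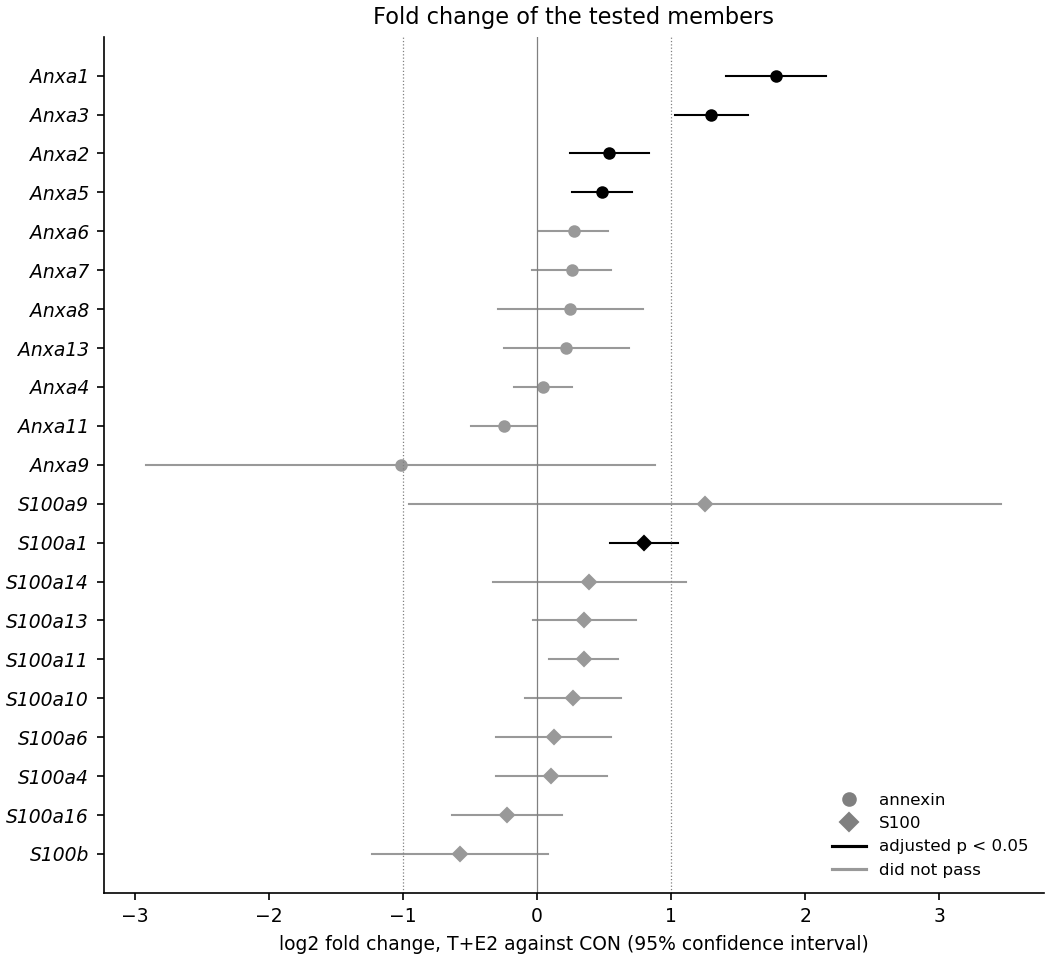
Log2 fold change of the T + E2 group against the CON group for the 21 tested members (points), with 95% confidence intervals (lines). Black marks the 5 members with an adjusted p under 0.05, and dotted lines mark a log2 fold change of 1 in each direction. Anxa1 and Anxa3 are the members in black that lie to the right of the upper dotted line.

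Anxa1 encodes annexin A1, which glucocorticoids induce and which acts through formyl peptide receptors to restrain inflammation. It lies on chromosome 19 of GRCm38 (20373428 to 20390944, ENSMUSG00000024659). Its level was 73.7, 102.7 and 87.1 CPM in the controls and 258.8, 359.4 and 287.2 CPM in the treated mice. The lowest treated mouse was far above the highest control. The group means were 87.8 ± 14.5 and 301.8 ± 51.8 CPM (SD, n = 3 each), a log2 fold change of 1.78 (standard error 0.163, 95% confidence interval 1.41 to 2.16, adjusted p = 0.000303 from edgeR). This is the largest fold change among the members that passed.

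Anxa3 encodes annexin A3, known for clumping the granules of neutrophils (chromosome 5, 96793339 to 96845966, ENSMUSG00000029484). The CON mice had 32.7, 37.2 and 32.4 CPM and the T + E2 mice 72.5, 88.8 and 90.6 CPM. The groups did not overlap, and the controls lay close together. The means were 34.1 ± 2.67 and 84.0 ± 9.97 CPM (SD, n = 3 each), a log2 fold change of 1.30 (standard error 0.117, 95% confidence interval 1.03 to 1.57, adjusted p = 0.000279 from edgeR).

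Anxa2 encodes annexin A2, which joins S100A10 in a complex at the plasma membrane that binds plasminogen activators (chromosome 9, 69453620 to 69491795). It had 164.5, 213.0 and 179.9 CPM in CON mice and 240.2, 301.0 and 268.5 CPM in T + E2 mice. All treated mice were above all controls, with CON replicate 2 nearest to them. The log2 fold change was 0.54 (standard error 0.129, adjusted p = 0.0231 from edgeR), and it missed the threshold when any of 4 mice was left out, with adjusted p from 0.0516 (without T + E2 replicate 3) through 0.0620 (without CON replicate 1) and 0.0692 (without T + E2 replicate 2) to 0.0758 (without CON replicate 3).

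Anxa5 encodes annexin A5, which binds phosphatidylserine and is used as a stain for dying cells (chromosome 3, 36448923 to 36475894). The CON mice had 120.1, 130.0 and 129.7 CPM and the T + E2 mice 175.8, 194.1 and 161.1 CPM. The groups were again separate, with a control range much narrower than the difference. The log2 fold change was 0.48 (standard error 0.0972, adjusted p = 0.0115 from edgeR).

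The remaining annexins did not pass. Anxa6, whose protein carries a duplicated annexin core, had 277.8, 276.1 and 317.0 CPM in the controls and 393.3, 328.7 and 329.7 CPM in the treated mice. The treated mice were all higher, but the adjusted p was 0.126 (log2 fold change 0.27). Anxa11, which binds S100A6 and links RNA granules to lysosomes, had 68.4, 73.7 and 70.1 CPM in CON mice and 57.1, 54.1 and 67.5 CPM in T + E2 mice. All treated mice were below all controls (log2 fold change -0.25, adjusted p = 0.138), and without T + E2 replicate 3 the adjusted p was 0.0446. Anxa7 (synexin) had 135.7 to 181.6 CPM in the controls and 170.5 to 191.3 CPM in the treated mice, which overlap at CON replicate 2, and without that mouse its log2 fold change of 0.41 had an adjusted p of 0.0484.

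Anxa4, found at the apical side of epithelial cells, was the most abundant annexin by counts and the member that varied least among the CON mice. It had 415.4, 423.1 and 419.3 CPM in CON mice and 409.5, 421.0 and 466.6 CPM in T + E2 mice, a coefficient of variation of 0.920% in the CON group, against 6.98% in the T + E2 group. The 95% confidence interval of its log2 fold change was -0.17 to 0.26. Anxa4 carries sequence that 131 other genes' transcripts share with an identity of 90% or more across 100 bases or longer, so its counts may hold reads of other genes or lack its own. Anxa13 and Anxa8 overlapped between groups, with log2 fold changes of 0.22 and 0.25 and adjusted p of 0.480 and 0.486. Anxa10 had 2 reads in T + E2 replicate 2 and none elsewhere.

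Anxa9, an annexin whose calcium sites have degenerated, had counts of 25, 182 and 15 in the controls and 31, 45 and 34 in the treated mice. A single control, CON replicate 2, held most of the CON reads, and this is the library with 9923 CPM of seminal vesicle markers. The log2 fold change was -1.02 (adjusted p = 0.418), and 0.88 (adjusted p = 0.150) without that mouse. T + E2 replicate 2 had the highest Anxa9 level of its group, at 2.74 CPM beside 2.14 and 2.27 CPM. Its seminal vesicle markers were mostly Svs2 (483.4 CPM) and Svs5 (109.4 CPM). Those of CON replicate 2 were mostly Svs4 (4578 CPM) and Svs5 (5032 CPM), so the 2 libraries differed in these markers. The part of seminal vesicle tissue in the Anxa9 values was not tested. Anxa9 shares 71 exon bases with Mindy1 on the opposite strand, whose counts were 1966, 2139 and 2486 in the CON mice.

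**Figure D2:**
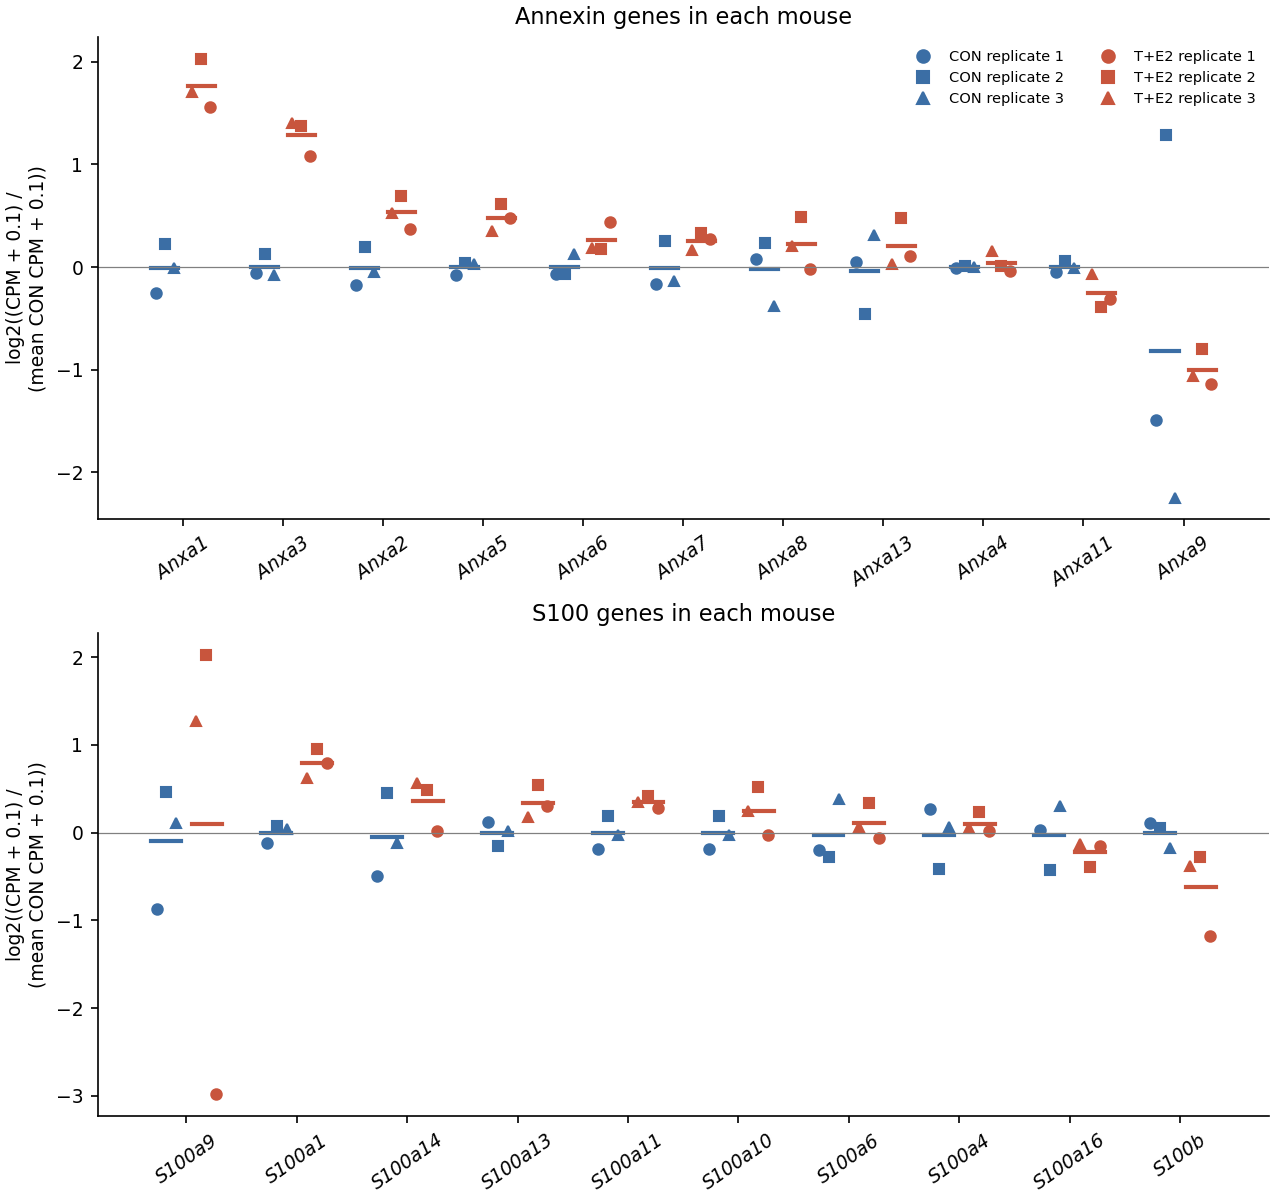
Level of each tested member in each mouse on a log2 scale, relative to the mean of the CON group (0), for annexins (top) and S100 genes (bottom). Points are mice, marked by replicate number, and short lines are means of the plotted values. All 3 T + E2 mice lie above all 3 CON mice for 5 annexins and 3 S100 genes and below them for Anxa11 and S100b, while CON replicate 2 stands alone for Anxa9 and T + E2 replicate 1 for S100a9.

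S100a1 was the S100 gene that passed. Its protein regulates calcium release channels and is best known from heart and skeletal muscle (chromosome 3, 90511034 to 90514392, ENSMUSG00000044080). The level was 31.5, 36.1 and 35.2 CPM in CON mice and 59.6, 66.3 and 53.0 CPM in T + E2 mice. Every treated mouse was above every control. The means were 34.3 ± 2.44 and 59.6 ± 6.64 CPM (SD, n = 3 each), a log2 fold change of 0.80 (standard error 0.111, 95% confidence interval 0.54 to 1.05, adjusted p = 0.00221 from edgeR). None of the 8 skeletal muscle markers passed in edgeR, DESeq2 or limma or had an unadjusted edgeR p under 0.05, and their sum was 74.3 to 325.8 CPM in the controls and 96.3 to 269.3 CPM in the treated mice.

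S100a11, the partner of annexin A1, had 30.6, 39.6 and 34.3 CPM in CON mice and 42.4, 46.4 and 44.3 CPM in T + E2 mice. The groups did not overlap, yet the adjusted p was 0.0642 (log2 fold change 0.35), and 0.0396 without CON replicate 2. S100a11 has 5 close copies (90% identity or more) among the transcripts of GENCODE M21, of which S100a11-ps had no read in any mouse. The others, among them the closest (Gm12854 and Gm7665), had no counts available, so reads on them could not be checked. S100a10, also called p11 and the partner of annexin A2, had 30.7, 39.8 and 34.1 CPM in the controls and 34.3, 50.1 and 41.4 CPM in the treated mice. These ranges overlap (log2 fold change 0.27, adjusted p = 0.264).

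S100a6 (calcyclin) had 54.8, 52.0 and 82.0 CPM in CON mice and 60.5, 79.2 and 65.9 CPM in T + E2 mice, with a control as the highest mouse of all. S100a4, which binds non-muscle myosin, had 17.5, 10.9 and 15.2 CPM in the controls and 14.7, 17.1 and 15.1 CPM in the treated mice. Neither passed, with log2 fold changes of 0.12 (95% confidence interval -0.31 to 0.55) and 0.11 (-0.31 to 0.52). S100a4 shares 51.7% of its exon bases with Gm42674 on the same strand, which had no reads. S100a13, needed for the release of fibroblast growth factor 1, was higher in every treated mouse (6.04 to 7.34 against 7.60 to 9.85 CPM) with an adjusted p of 0.178. S100a14 and S100a16 overlapped between the groups, with log2 fold changes of 0.39 and -0.22 and adjusted p of 0.412 for both.

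S100b, known from glia and Schwann cells, had counts of 56, 54 and 48 in CON mice and 21, 46 and 39 in T + E2 mice. All treated mice were lower, T + E2 replicate 1 most of all (log2 fold change -0.58, 95% confidence interval -1.23 to 0.079, adjusted p = 0.193). Of 8 tested markers of Schwann cells and nerve, 4 passed with lower levels, among them Sox10, Prx and Ngfr, beside 9.25% of all tested genes. The count was 4 with DESeq2 and 2 with limma on log2(FPKM + 0.1), while Gfap had a log2 fold change of 1.18 (adjusted p = 0.108 from edgeR). The sum of the 9 listed markers was 264.1 to 340.3 CPM in the controls and 165.0 to 236.3 CPM in the treated mice, lowest in T + E2 replicate 1. Their part in the values of S100b was not tested.

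S100a8 and S100a9 encode calprotectin, the calcium-binding protein that fills the cytoplasm of neutrophils. S100a9 had counts of 5, 15 and 12 in CON mice and 0, 51 and 27 in T + E2 mice, and S100a8 had 2, 0 and 2 against 0, 17 and 7. T + E2 replicate 1 had no read of either gene while the other treated mice had the most, so the groups overlapped. The log2 fold change of S100a9 was 1.25 (95% confidence interval -0.96 to 3.46, adjusted p = 0.392), and it moved with single mice, to 1.82 (adjusted p = 0.0403) without T + E2 replicate 1 and 0.39 (adjusted p = 0.850) without T + E2 replicate 2. With limma on log2(FPKM + 0.1) it was 0.084 and did not pass. S100a8 had too few counts for the test. Of 11 neutrophil markers 3 could be tested, and none passed in edgeR or DESeq2 or had an unadjusted edgeR p under 0.05. The sum of the 11 was 12.4 to 33.5 CPM in the controls and 17.9 to 21 CPM in the treated mice. Most of this sum was Mmp9 (8.29 to 15.35 CPM over all mice) and Ltf (1.57 to 15.75 CPM). The 8 untested markers had counts of 0 to 14. T + E2 replicate 1 was at 0 for these 8 and had 180 reads of Mmp9, 63 of Ltf and 16 of Csf3r, while CON replicate 1 was at 0 for Ly6g, Elane, Mpo, Camp and Ngp.

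The other untested S100 genes were close to absent at this depth. S100a3 had 0 to 5 counts a mouse, S100a5 and S100g had 1 count in a single mouse each, and S100a2 had none. S100g encodes calbindin-D9k, a carrier of calcium in absorbing epithelia, and its 1 read was in CON replicate 3.

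Summed over each family, annexin reads came to 1323, 1474 and 1412 CPM in CON mice and 1827, 1986 and 1878 CPM in T + E2 mice. The groups were far apart, and the mean was 35.2% higher. Anxa1 made up 43.3% of the rise in the annexin sum, Anxa2 17.1%, Anxa6 12.2%, Anxa5 10.2% and Anxa3 10.1%. The share of Anxa1 in all annexin reads was 6.26% in the CON group, against 15.9% in the T + E2 group, while that of Anxa4 was 29.9% and 22.8%. S100 reads came to 215.0, 218.7 and 258.4 CPM in the controls and 256.0, 306.8 and 268.5 CPM in the treated mice, which overlap. The mean S100 sum was 20.1% higher, and S100a1 made up 54.7% of that difference.

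Levels were compared between genes per length. The FPKM length of a gene was found to equal the sum of its distinct annotated exons, with overlapping exons counted again, in 88.0% of 12375 genes with several transcripts (equal within 0.5 bases plus 0.05%). This lowers the FPKM of genes with many transcripts, so levels per kilobase of merged exons are given beside them, a scale chosen after the data were seen. By FPKM the order in the CON group was Anxa6, then Anxa4 with Anxa5, Anxa7 and Anxa2. Anxa4 (56.2 ± 1.19 FPKM) and Anxa5 (56.2 ± 2.40 FPKM) lay within their spread on this scale (SD, n = 3), but at 90.3 ± 0.814 and 71.2 ± 3.14 per kilobase of merged exons they did not. Anxa7 (48.1 ± 8.75 FPKM) and Anxa2 (46.1 ± 6.56 FPKM) lay within their spread by FPKM and apart per kilobase of merged exons (25.3 ± 4.30 and 49.8 ± 6.64), where the coordinates of Anxa7 differ between the annotation and the files. Anxa1 was the 7th of the 12 annexins in the CON group (23.7 ± 4.06 FPKM) and the 2nd in the T + E2 group (79.3 ± 14.6 FPKM), where it lay within the spread of Anxa5 (76.6 ± 6.95 FPKM). Per kilobase of merged exons Anxa1 went from the 5th place to the 2nd. In the CON group it lay within the spread of Anxa7 on this scale (30.17 ± 4.975 and 25.3 ± 4.30). In the T + E2 group its 103.7 ± 17.8 lay within the spread of Anxa5 (99.6 ± 9.27) and Anxa4 (93.1 ± 6.52). The exons of Anxa1 and Anxa7 in the annotation differ from those behind the FPKM, so these places are uncertain.

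Among the S100 genes S100a11 was the highest in both groups, at 69.1 ± 9.54 FPKM in the CON and 85.7 ± 5.73 FPKM in the T + E2 group. S100a6 (32.9 ± 8.04 FPKM) and S100a1 (27.7 ± 1.97 FPKM) followed in the CON group within their spread, and in the T + E2 group S100a1 (46.9 ± 5.02 FPKM) was above S100a6 (35.1 ± 5.43 FPKM). Per kilobase of merged exons S100a1 reached 85.9 ± 9.56 in the T + E2 group, beside 86.8 ± 3.95 for S100a11. S100a16 was affected most by the length, with 6.77 FPKM in the CON group but 22.3 per kilobase of merged exons, 3.29 times as much.

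**Figure D3:**
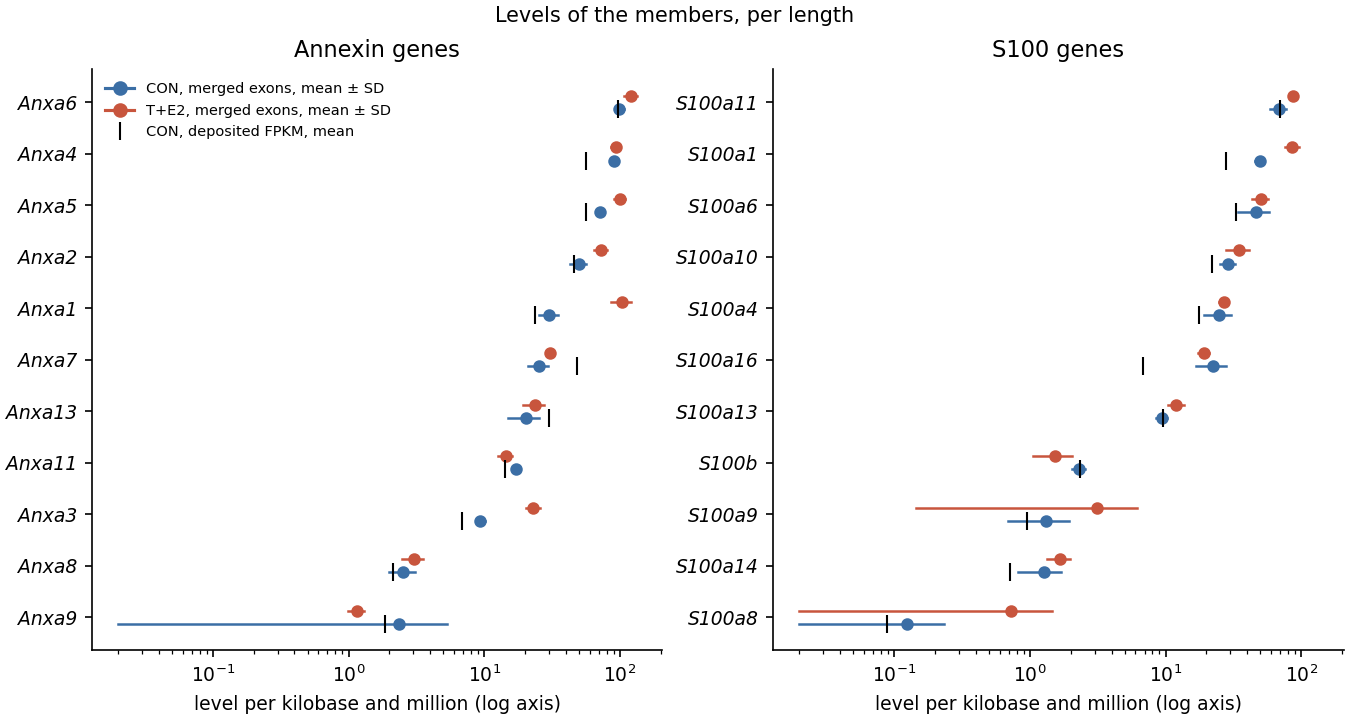
Level of each member per kilobase of merged exons at equal depth (log axis), as mean ± SD of 3 mice, with the deposited mean FPKM of the CON group as a black tick. Members at or near 0 are left out, and bars that reach below 0 are cut at the edge. The exons of Anxa1, Anxa7 and Anxa13 in the annotation differ from those behind the deposited FPKM. Anxa1 moves from the 5th to the 2nd annexin, in each group within the spread of another annexin, and S100a16 has its tick far to the left of its point.

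Ratios of genes whose proteins bind each other were compared in each mouse as the log2 ratio of FPKM values after adding 0.1. With 3 mice against 3 the exact two-sided permutation test cannot go below p = 0.1. The ratio of S100a10 to Anxa2 was -1.08, -1.08 and -1.06 in CON mice and -1.47, -1.25 and -1.36 in T + E2 mice. All treated mice were lower, and the difference was -0.28 (exact permutation p = 0.1, adjusted over 4 ratios 0.2). The controls lay very close together. The ratio of S100a11 to Anxa1 was 1.61, 1.50 and 1.53 in the controls and 0.27, -0.072 and 0.18 in the treated mice, a difference of -1.42 (exact permutation p = 0.1, adjusted 0.2) with the groups far apart.

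The ratio of S100a6 to Anxa11 was 0.88 to 1.61 in CON mice and 1.35 to 1.93 in T + E2 mice, and the groups overlapped (difference 0.40, exact permutation p = 0.3, adjusted 0.4, and 0.22 to 0.61 with 1 mouse left out). That of S100a9 to S100a8 rested on few reads, was set by the added 0.1 in T + E2 replicate 1, where both were at 0, and differed by -1.12 (exact permutation p = 0.4, adjusted 0.4). The difference was -1.74 to -0.42 with 1 mouse left out, and 0.044 with 1 added to the FPKM.

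**Figure D4:**
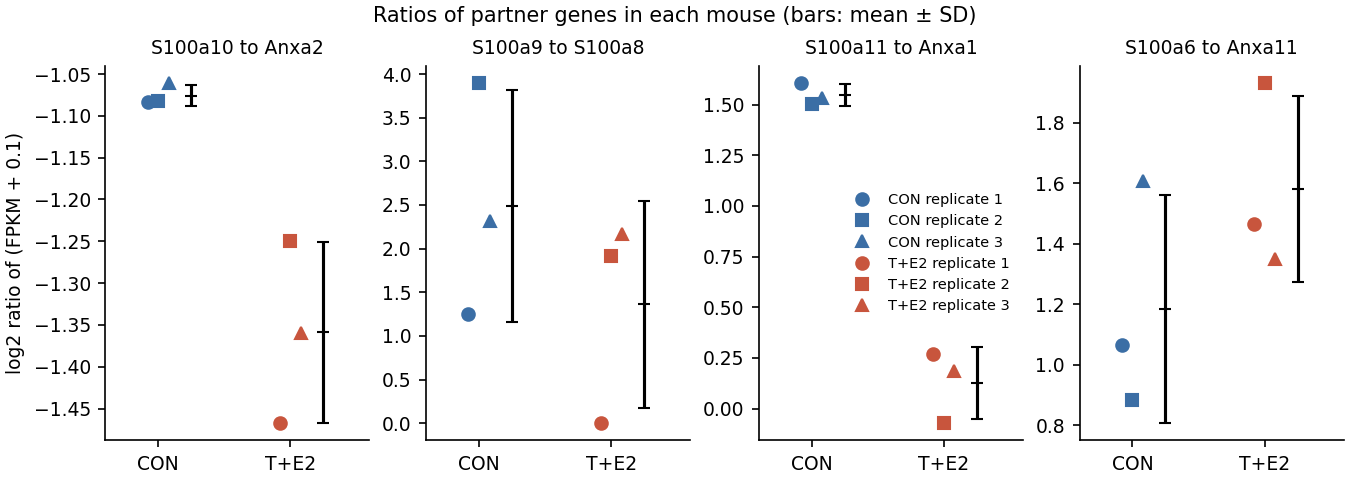
Log2 ratio of (FPKM + 0.1) for 4 pairs of partner genes in each mouse (points, marked by replicate number), with mean ± SD of 3 mice in black. Each panel has its own axis. The ratios of S100a10 to Anxa2 and of S100a11 to Anxa1 are lower in all 3 T + E2 mice than in all 3 CON mice, and the other ratios overlap.

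The S100 genes are gathered on chromosome 3, with 13 of 15 there. A block of 11 genes from S100a1 to S100a9 spans 184688 bases (90511034 to 90695721), and S100a11 and S100a10 lie 2824766 bases beyond its end. S100b is on chromosome 10 and S100g on X, while the annexins are spread over 9 chromosomes. S100a1, at the edge of the block, was the only tested gene of the block with an adjusted p under 0.05 when all 6 mice were kept. Its neighbour S100a13 starts 42 bases away on the opposite strand, with a log2 fold change of 0.35 (adjusted p = 0.178) beside 0.80 for S100a1. Whether these changes differ was not tested.

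**Figure D5:**
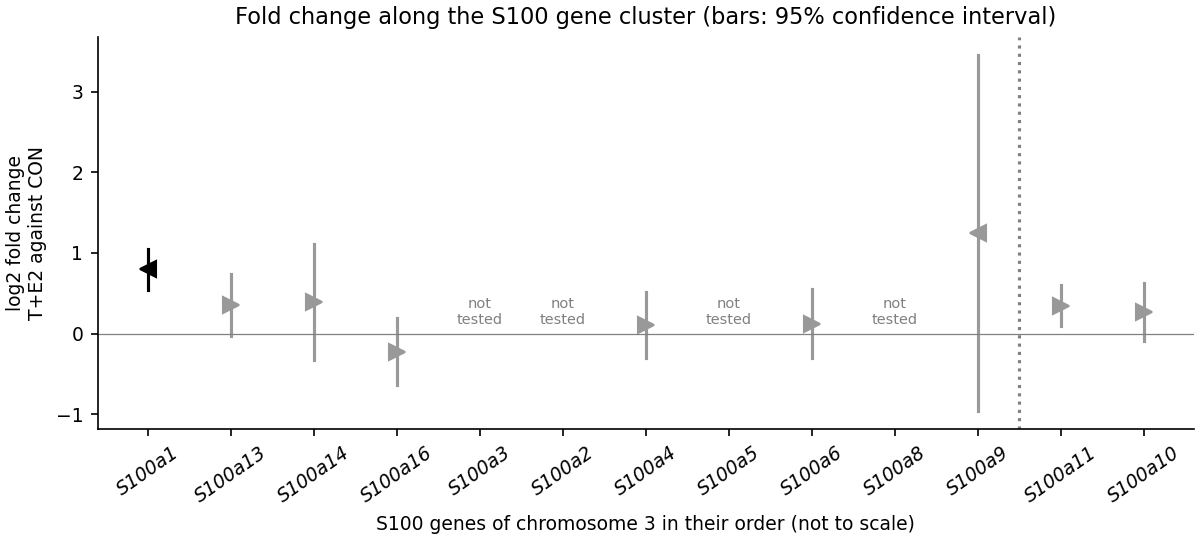
Log2 fold change of the T + E2 group against the CON group for the S100 genes of chromosome 3 in their order along it, not to scale. Triangles point in the direction of transcription, bars are 95% confidence intervals, black marks an adjusted p under 0.05, and the dotted line marks the gap between the blocks. S100a1 at the left end is the only gene in black.

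The bases between S100a1 and S100a13, both of which start here and read away from each other, are shown on the forward strand of GRCm38 (RefSeq sequence, gene ends from GENCODE M21), chr3:90514393-90514434. The 42 bases have a G and C content of 54.8%.

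S100a1 and S100a13: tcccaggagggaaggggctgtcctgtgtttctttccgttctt

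Promoters of 250 bases before to 50 bases after the start were available from RefSeq (GRCm38.p6) for 21 of the 27 members, as 28 promoters, and Anxa3 and Anxa6 were not among them. The motifs searched on both strands were the androgen response element (the full palindrome with 3 free bases), AGAACA, which is an arm of it and so overlaps it, the estrogen response element (the full palindrome with 3 free bases), and TATAAA, the TATA box. Neither palindrome was found in a member's promoter, and both are rare in all 32851 promoters of this length (0.00913% and 0.0700%). AGAACA was in 3 member promoters, those of S100a3, S100a6 and Anxa4, and in 19.0% of all. TATAAA was in 8 of the 28, and in 13.6% of all. Among the members that passed, Anxa1 and Anxa2 had one, 32 and 17 bases before their RefSeq start, while Anxa5 and S100a1 had none in the window. The 30 bases around each are printed with the TATA box in capitals, chr19:20390686-20390715 on the reverse strand for Anxa1 and chr9:69453654-69453683 on the forward strand for Anxa2. Both stretches lie inside the gene coordinates given above, whose starts are further upstream than those of RefSeq.

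Anxa1: cagttcatatccTATAAAatcaggagtcca
Anxa2: ggatggggcgggTATAAAagccccacccag

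Genes that work with the members were counted from lists of known partners. Of 9 receptors of secreted S100 proteins and annexin A1, 4 could be tested and 2 passed, both higher, beside 10.4% of all tested genes. Bsg, a membrane glycoprotein that binds S100A9, had 331.3, 406.7 and 413.3 CPM in the controls and 1500, 1395 and 1128 CPM in the treated mice, a log2 fold change of 1.80 (adjusted p = 0.00016 from edgeR). Tlr4, the receptor for lipopolysaccharide and for S100A8 with S100A9, had 3.11, 1.64 and 11.4 CPM in CON mice and 18, 23.8 and 19.4 CPM in T + E2 mice (log2 fold change 1.92, adjusted p = 0.0490 from edgeR). Its groups did not overlap, but the call was lost in DESeq2 (adjusted p = 0.0644), with total-count scaling (0.0520) and when any mouse other than CON replicate 3 was left out (up to 0.134). The formyl peptide receptors were scarce beside the level of Anxa1, with at most 4 counts in any mouse for Fpr1 and Fpr2 and 0 in every mouse for Fpr3, Fpr-rs3 and Fpr-rs4.

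Of 17 binding partners 15 could be tested. In edgeR 2 passed with higher and 2 with lower levels, beside 10.4% and 9.25% of all tested genes. DESeq2 gave 3 and 2, and limma on log2(FPKM + 0.1) gave 1 and 2. Ahnak, a giant scaffold held at the membrane by S100A10 and annexin A2, had 276.4 to 318.4 CPM in the controls and 758.2 to 1003 CPM in the treated mice (log2 fold change 1.57, adjusted p = 0.000174 from edgeR). Iqgap1, a scaffold of the cell cortex, rose by 0.36 on the log2 scale (adjusted p = 0.0320 from edgeR), a call lost under 9 of 14 alternatives, among them leaving out any mouse other than CON replicate 1 (adjusted p up to 0.108). Kcnk3, a potassium channel, had 228.2 to 356.7 CPM in CON mice and 65.1 to 81.5 CPM in T + E2 mice (log2 fold change -2.00, adjusted p = 0.00027 from edgeR), and Trpv6, a calcium channel, had 78.9 to 132.3 CPM and 39.2 to 52.5 CPM (log2 fold change -1.28, adjusted p = 0.00383). Trpv5, another calcium channel of the list, had at most 3 reads in a mouse and was not tested.

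Of 18 other calcium-binding EF-hand genes in the table, 14 could be tested. In edgeR 5 passed with higher levels, beside 10.4% of all tested genes. With lower levels 0 passed, beside 9.25% of all tested genes, and 1 was lower at an unadjusted edgeR p under 0.05. DESeq2 gave 6 higher and 0 lower. Among those that passed were Calb2 (calretinin, log2 fold change 2.48), Rcn1 and Rcn2 (reticulocalbins of the endoplasmic reticulum, 1.23 and 0.66) and Sdf4 (a Golgi calcium protein, 0.87). Of the S100 relatives outside the rule, 3 of 10 could be tested, and none passed in edgeR, DESeq2 or limma or had an unadjusted edgeR p under 0.05. Flg, Flg2 and Tchhl1, the fused S100 genes of the skin barrier, had no reads.

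Markers of other cell types were counted beside the annexins. Of all tested genes, 10.4% passed with higher and 9.25% with lower levels. Of 8 macrophage and monocyte markers 3 passed with higher levels (Cd14, Itgam and Mrc1), and their sum was 178.2 to 264.7 CPM in the controls and 288.7 to 422.4 CPM in the treated mice. Of 4 tested urothelium markers 3 passed with higher levels, and the sum of the 6 listed was 422.7 to 641.9 CPM against 1374 to 1701 CPM. Most of this sum was Upk1a, with 273.4 to 501.5 CPM in the controls and 1179 to 1421 CPM in the treated mice. Upk2 had 0.628 to 0.918 and 2.695 to 4.987 CPM. Upk3a had no read in the controls and 5, 99 and 3 reads in the treated mice, and Krt20 had 2, 3 and 4 against 6, 120 and 1. Of 4 basal epithelium markers 1 passed (Trp63, higher), and the sums of 154.7 to 256.8 and 244.9 to 312.5 CPM overlapped. The part of these cells in the values of Anxa1, Anxa2, Anxa3 and Anxa5 was not tested.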

How the data were processed

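The authors deposited 1 table of the whole series with a read count for each gene and mouse, without normalization, and the FPKM that the authors computed from it. Per the submitters' processing notes, TopHat, Bowtie2 and HTSeq were used. Their versions, the annotation and whether reads were counted by strand are not given in the sources used here. The study's methods name DESeq2 for the comparison. Coordinates lie on GRCm38 and were compared with GENCODE M21.

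The deposited counts were filtered with filterByExpr (minimum count 10, minimum total 15), scaled by TMM and compared by the quasi-likelihood test of edgeR 4.0.16 in R 4.3.3, 3 T + E2 against 3 CON mice, with Benjamini-Hochberg adjustment over 15580 genes. Groups and replicate numbers come from the sample labels. Libraries of a group were compared pairwise, and none were alike within sampling noise (chi-square per degree of freedom 17.8 to 39.0), so none repeats another. That each library is a separate mouse comes from the study's methods and was not tested. Totals of 14816146 to 16555549 counts put the floor of 3 counts at 0.182 to 0.207 CPM. In simulated data of this comparison with 15222 tested genes, 68 of 96 genes changed 2-fold and 92 of 96 changed 4-fold were recovered, with 19 false calls. Far fewer genes were changed in the simulation than passed in the data, so these rates need not hold for the data.

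Ratios of FPKM were compared with SciPy 1.17.1. Sequence copies were sought with BLAST+ 2.17.0+. Alternatives were other scalings and filters, DESeq2 1.42.0, limma 3.58.1 on log2(FPKM + 0.1) and log2(FPKM + 1), a replicate block, and each mouse left out in turn.

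Every member is accounted for. DEGs are given in full, and members that passed, the 5 with the highest mean FPKM of each family and those of a partner ratio with their values. From the partner lists up to 4 genes that passed are named. The other members were named with values as well. The members, the lists and these rules were chosen with earlier results of these data known. Some genes of the lists are not reported here.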

Additional observations from a re-analysis of the deposited data

How the results depend on the processing

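Anxa1, Anxa3, Anxa5 and S100a1 passed the test under all 14 alternatives, with log2 fold changes of 1.64 to 1.91, 1.15 to 1.39, 0.41 to 0.55 and 0.72 to 0.88. Bsg, Ahnak, Kcnk3, Trpv6, Calb2, Rcn1, Rcn2 and Sdf4 passed under all 14 as well, unlike Tlr4 and Iqgap1. DESeq2, limma on either FPKM scale, other scalings and other filters called the same 5 members as edgeR. Total-count scaling moved the median of all genes to -0.040. With 1 mouse left out the log2 fold change was -1.51 to 0.88 for Anxa9 and -0.063 to 0.26 for S100a4, turning without CON replicate 2, and -0.016 to 0.082 for Anxa4, turning without T + E2 replicate 3. The difference in the S100a9 to S100a8 ratio was 0.044 with 1 added to the FPKM, and few reads lie behind it. The annexin sum without Anxa4 differed by 0.57 on the log2 scale, since Anxa4 is large and steady. With 1 mouse left out, 1 to 2 S100 genes and 3 to 5 annexins were higher, 0 to 1 S100 genes were DEGs (S100a9 without T + E2 replicate 1), 0 to 1 annexins were lower, and the medians were 0.18 to 0.38 and 0.22 to 0.41. The genes gained were S100a11 and Anxa7 (without CON replicate 2), S100a9 and Anxa11, and the gene lost was Anxa2.

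The groups share the replicate numbers 1 to 3 in the labels, but the mice are different animals, and deviations of mice with the same number correlated at -0.052, 0.028 and 0.046 over genes. CON replicate 3 correlated best with T + E2 replicate 1 (0.14), so not every mouse correlated best with its own number. With a replicate block 2174 in place of 3061 genes passed, and 1 S100 gene and 4 annexins were still called, with medians of 0.30 and 0.27.

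Members at fewer than about 10 counts a mouse, such as S100a8, could not be tested, and 3 mice a group leave wide intervals for S100a9 and Anxa9.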

Other observations

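Over the tested members of each family, the median deviation from the CON mean was highest in T + E2 replicate 2, at 0.51 for the annexins and 0.48 for the S100 genes on the log2 CPM scale. It was 0.29 and 0.016 in T + E2 replicate 1 and 0.19 and 0.22 in T + E2 replicate 3. The annexin and S100 medians of T + E2 replicate 1 lay further apart than those of the other treated mice. Among the 8 prostate luminal markers 2 passed with higher levels (Msmb and Spink1) and 3 with lower levels (Pbsn, Tgm4 and Krt18). Of all tested genes 10.4% passed with higher and 9.25% with lower levels.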
